A study of Mus musculus with 8 samples.

Results

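The genes described here are 45 transcription factors outside the Hox clusters that pattern the embryo: 6 Pax, 5 Gata, 7 Tbx, 6 Nkx, 8 Fox and 13 other homeobox genes. They were listed by name as developmental genes that Polycomb is known to hold silent, and they make up 45 of 21900 protein-coding genes of the mouse annotation (GRCm38). Peaks were counted as belonging to a gene when they overlapped it or the 10 kb on either side of it, and below and above a gene refer to lower and higher coordinates, whatever its strand. Of 189914 merged regions of open chromatin in the series, 187 lay at these genes. The data are ATAC-seq peak lists of retinal ganglion cells (RGCs), 50000 sorted cells per library, from adult C57BL/6J mice of both sexes. AAV2 carrying GFP (3 samples), Ezh2 (3 samples) or Ezh2-Y726D (2 samples) had been injected into the eye. All groups underwent optic nerve crush (ONC) 2 weeks after the injection, with RGCs sorted 3 days after the crush. Ezh2-Y726D is a catalytically dead form of Ezh2. Cells were sorted on CD90.2, which T cells carry as well, and on exclusion of a dead-cell dye. Whether replicates were separate animals was not stated in the sources used here, so p-values measure the spread between these samples only.

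Ezh2 is the catalytic subunit of Polycomb repressive complex PRC2, which trimethylates lysine 27 of histone H3. Canonical PRC1 binds this mark and compacts chromatin. In differentiated cells the classical targets are the genes of other lineages, above all developmental transcription factors whose promoters lie in stretches of unmethylated, CG-rich DNA. CG-rich promoters are open in most cell types when they are not held by Polycomb. Several members are used in the retina itself: Dlx1 and Dlx2 in the birth of RGCs and interneurons, Barhl2 in amacrine cells and RGCs, Lhx1 in horizontal cells, Tbx2, Tbx3 and Tbx5 in the dorsal retina, and Pax2 in the optic stalk. The others are known mainly from other tissues, among them kidney, gut, heart, blood, muscle, limb, face and other parts of the nervous system.

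The promoters below, all CG-rich by the measure given in the next paragraph, show the range of peak calling over such sequence. Each is the 250 bases before a start site in the RefSeq promoter table (GRCm38.p6), 5′ to 3′ on the strand of the gene, with every CG in capitals. CG reads the same on both strands. In Nkx2-2 only 8 of the 17 CG of the 300 bases measured lie in the printed stretch, the others being after the start site. They were chosen after their values had been seen, as 2 promoters with a peak in all 8 lists (Dlx1, Barhl2), 1 whose peak was missing from the Ezh2-Y726D lists alone (Gata3), and 2 without a peak in any list (Nkx2-2, Foxd3).
Dlx1, chr2:71529195-71529444, plus strand: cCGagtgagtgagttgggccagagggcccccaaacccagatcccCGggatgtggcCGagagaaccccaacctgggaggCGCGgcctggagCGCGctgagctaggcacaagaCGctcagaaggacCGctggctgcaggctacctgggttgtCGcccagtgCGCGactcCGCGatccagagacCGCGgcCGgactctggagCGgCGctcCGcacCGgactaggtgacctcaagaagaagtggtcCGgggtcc
Barhl2, chr5:106458167-106458416, minus strand: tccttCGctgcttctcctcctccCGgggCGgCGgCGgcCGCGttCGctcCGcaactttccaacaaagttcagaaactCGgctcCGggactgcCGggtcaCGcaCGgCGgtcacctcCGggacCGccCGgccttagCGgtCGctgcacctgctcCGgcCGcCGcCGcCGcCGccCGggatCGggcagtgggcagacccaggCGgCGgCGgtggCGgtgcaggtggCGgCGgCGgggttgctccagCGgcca
Gata3, chr2:9878601-9878850, minus strand: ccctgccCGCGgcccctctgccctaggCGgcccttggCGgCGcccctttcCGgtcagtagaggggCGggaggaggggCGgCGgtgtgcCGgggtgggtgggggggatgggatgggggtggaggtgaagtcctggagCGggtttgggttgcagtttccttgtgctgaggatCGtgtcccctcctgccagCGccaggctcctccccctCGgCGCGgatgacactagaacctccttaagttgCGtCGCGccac
Nkx2-2, chr2:147186403-147186652, minus strand: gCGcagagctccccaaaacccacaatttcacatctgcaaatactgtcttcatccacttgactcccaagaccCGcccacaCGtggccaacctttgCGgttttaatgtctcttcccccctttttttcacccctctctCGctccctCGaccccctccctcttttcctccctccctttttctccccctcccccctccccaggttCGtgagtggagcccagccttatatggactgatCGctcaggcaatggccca
Foxd3, chr4:99656049-99656298, plus strand: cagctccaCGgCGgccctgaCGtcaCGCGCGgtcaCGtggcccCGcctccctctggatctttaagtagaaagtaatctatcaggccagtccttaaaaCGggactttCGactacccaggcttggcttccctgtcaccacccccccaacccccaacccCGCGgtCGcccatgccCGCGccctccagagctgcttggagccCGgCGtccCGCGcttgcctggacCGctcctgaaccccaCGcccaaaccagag

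These promoters were rich in CG yet mostly low in, or without, called peaks. The promoter table had 38 promoters, each of 300 bases, for 31 members. The members without an entry were Pax3, Gata4, Gata6, Tbx2, Tbx3, Tbx5, Tbx15, Foxc2, Foxf1, Lhx5, Dlx3, Dlx4, Dlx5 and Dlx6. A promoter was counted as CG-rich when its GC content was at least 50% and its number of CG was at least 0.6 of that expected from its C and G content. By that measure 28 of the 38 (73.7%) were CG-rich, against 45.1% of 21263 promoters of all protein-coding genes. A peak overlapped 14, 15 and 18 of the 38 in GFP replicates 1, 2 and 3, 17, 16 and 18 with Ezh2, and 10 and 12 with Ezh2-Y726D. That is from 26.3% to 47.4% of them, whereas from 61.9% to 64.7% of all promoters and from 95.9% to 96.8% of all CG-rich promoters had a peak. The counts of the Ezh2-Y726D lists lay below all others, but not under either alternative, both chosen after the data had been seen. With −log10 q of at least 5 they were 7 and 9 against 8 to 13 in the other lists, and with lists of equal length 9 and 10 against 9 to 15. Over all promoters the share was also lowest in the Ezh2-Y726D lists, at 61.9% and 62.7%, against 63.0% to 64.7% in the others.

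Among the 28 CG-rich promoters of members, 8 (28.6%) had no peak in any list. These were promoters of Barhl1, Nkx2-2, Pax1, Foxd3 and Tbx18, 1 of the promoters of Tbx1 and 2 of the promoters of Foxa2. Of all 9600 CG-rich promoters, only 2.58% had none. In contrast, 7 CG-rich promoters of members had a peak in all 8 lists, those of Dlx1, Msx1, Barhl2, Six2, Msx2, Foxc1 and Foxf2. The remaining 13 had a peak in some lists. Where a promoter peak was called it was usually weak: its median percentile by fold within its own list, where 50 is the median peak, lay between 12.2 and 36.9 for members and between 86.6 and 88.4 for all promoters.

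Dlx1 stood highest among these promoters by its mean over the lists, though Msx1 was above it in Ezh2 replicate 2 (73.6). The Dlx1 promoter peak sat at percentiles 81.3, 76.2 and 76.4 in GFP, 77.9, 64.2 and 77.6 with Ezh2 and 56.4 and 63.7 with Ezh2-Y726D. The Barhl2 promoter followed a like order, at 51.5, 59.0 and 50.1 in GFP, 58.5, 49.9 and 60.1 with Ezh2 and 41.0 and 39.4 with Ezh2-Y726D. In both genes the 2 Ezh2-Y726D values were below every other value. At the Foxf2 promoter they were above every other value, at 32.7 and 36.1 against 8.46 to 29.9. At the promoters of Msx1, Six2, Msx2 and Foxc1, which also had a peak in all lists, they overlapped the other values. At the Gata3 promoter the peak was near the bottom of its list wherever it was called, at 6.43, 1.46 and 6.32 in GFP and 4.04, 2.73 and 13.1 in Ezh2. The CG-rich promoters of 2 lists chosen for comparison lay on either side of the members. In 20 transcription factors of retinal neurons, 12 of 15 CG-rich promoters had a peak in all 8 lists and 1 had none in any, while in Hox genes 0 of 11 had a peak in all lists and 7 had none. Promoter peaks of the retinal factors were weak as well, with a median percentile from 30.96 to 55.4 over their 21 promoters.

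**Figure D1:**
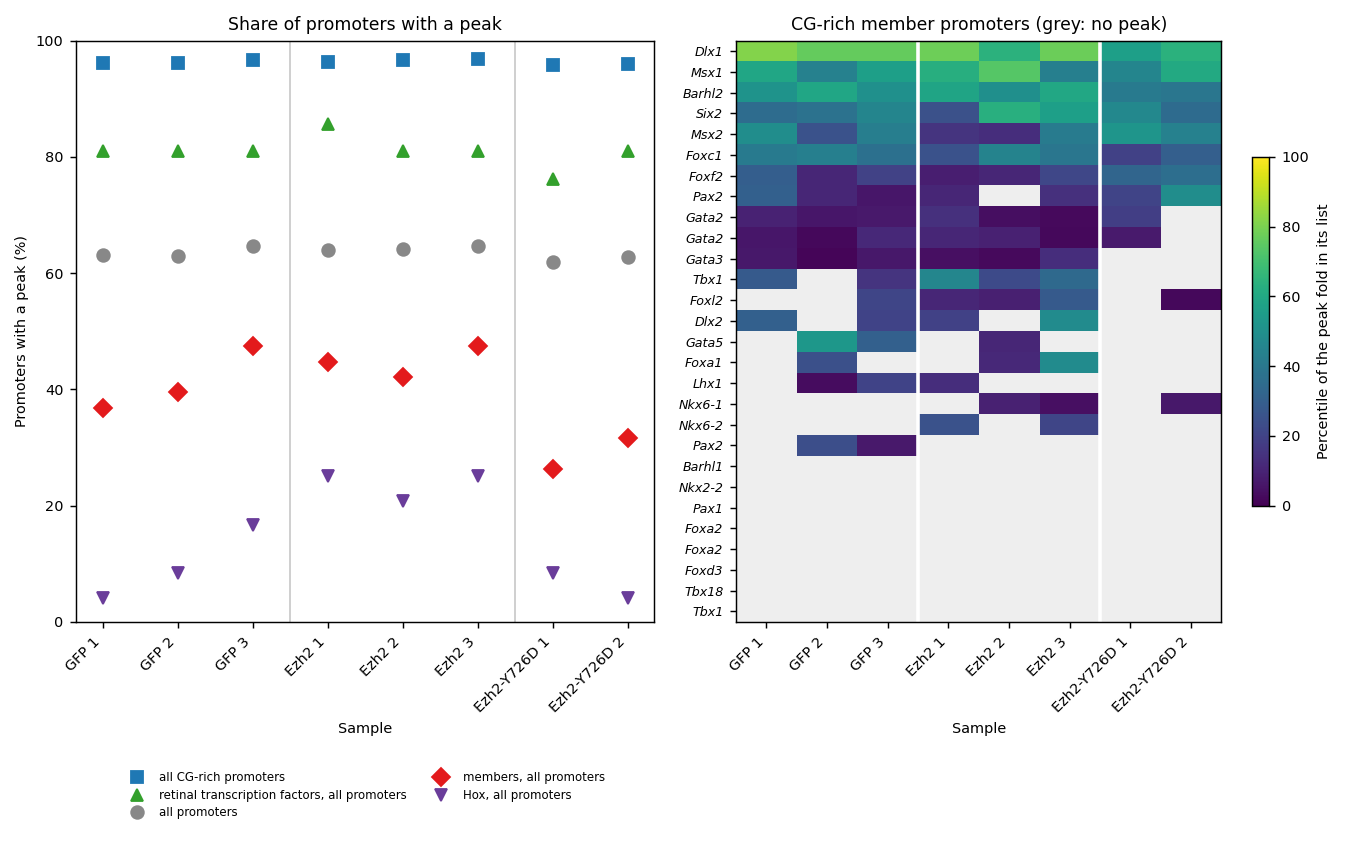
Left: share of promoters with a peak (%) in each of the 8 samples, for the members, Hox genes, retinal transcription factors, all promoters and all CG-rich promoters. The members lay between 26.3% and 47.4% in all 8 samples, below all promoters and above Hox. Right: percentile of the promoter peak's fold within its own list for the 28 CG-rich promoters of members (rows, some genes having more than 1) in each sample, with grey for no peak; 8 rows are grey throughout.

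All 20 RGC marker genes had a peak within 10 kb in every list (99 to 132 peaks per list). So did all 20 rod markers, all 20 markers of Mueller glia and astrocytes and all 12 of amacrine and horizontal cells. Presence of a peak at markers therefore cannot tell RGCs from these cells. Of 6 marker lists of other cells, 2 stood lower in both Ezh2-Y726D lists than in every other list. At 18 T cell markers found in the annotation the lists held 102, 105 and 130 peaks in GFP, 145, 149 and 148 with Ezh2 and 67 and 68 with Ezh2-Y726D, and Cd8a and Cd8b1 had no peak in either Ezh2-Y726D list. At 20 markers of microglia and macrophages the numbers were 85, 88 and 105, then 107, 104 and 112, then 51 and 53, with Tmem119 and Itgam without a peak in either Ezh2-Y726D list. For rods, Mueller glia and astrocytes, endothelial cells and pericytes, and amacrine and horizontal cells, the median log2 difference in peak number between Ezh2 and Ezh2-Y726D lay from -0.00496 to 0.0268, with 0 to 2 genes of a list called with more peaks in Ezh2. The lists held 112939 to 135895 peaks, and sequencing depth is unknown because they hold no read numbers.

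Nearly all members had open chromatin nearby in every group. Of the 45, a peak lay in or within 10 kb of 44, 43 and 44 in GFP, 43, 44 and 45 with Ezh2 and 40 and 43 with Ezh2-Y726D. Of all protein-coding genes, 81.9% to 83.2% had one. Pax1, which acts in the sclerotome and the pharyngeal pouches, was the least open, with a single peak, in Ezh2 replicate 3, at percentile 11.6. The lists held 129, 133 and 151 member peaks in GFP (138 ± 11.7, SD, n = 3), 135, 133 and 141 in Ezh2 (136 ± 4.16, n = 3) and 111 and 130 with Ezh2-Y726D (121 ± 13.4, n = 2). As a share of its own list, this was 0.111%, 0.118% and 0.113% in GFP, 0.107%, 0.104% and 0.104% with Ezh2 and 0.0890% and 0.101% with Ezh2-Y726D. By this share every GFP list lay above every other list, and both Ezh2-Y726D lists lay below the rest. The order of GFP and Ezh2 did not hold when all lists were cut to equal length, where the shares ran from 0.0983% to 0.118% in GFP, from 0.0965% to 0.104% in Ezh2 and from 0.0868% to 0.0921% in Ezh2-Y726D.

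The members are short genes, and per length their windows were about as densely covered as those of other genes. Their windows had a median length of 27560 bp against 37146 bp over all genes, and held 0.584 to 0.800 peaks per 10 kb against 0.664 to 0.784. Their peaks were of less than middling strength. The median member peak sat at percentile 38.9, 38.2 and 37.0 of its list in GFP, 41.1, 44.8 and 44.7 with Ezh2 and 43.0 and 42.8 with Ezh2-Y726D, below the list median of 50 in all 8 lists. GFP lay below both other groups. Of the 187 member regions, 115 overlapped the gene and 72 lay outside it, and 72 (38.5%) had a peak in all 8 lists, against 36.6% of all regions. These 72 shared regions lay at 38 of the members.

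Members differed widely in how many peaks they held. Tbx2, a repressor of the dorsal retina, had the highest median over the 8 lists at 7.5 peaks, followed by Barhl2 (7), Gata4, a factor of heart and gut (6), and Tbx5 (5.5). Tbx3, Pax2 and Gata3 shared the next place at 5. At the lower end, the median was 0 for Pax1 and 1 for Pax9, Gata6, Nkx2-1, Foxa2, Foxd3 and Dlx6. Foxf1 had exactly 2 peaks in every list. Values for every member are in the plot of peak numbers by gene and sample.

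**Figure D2:**
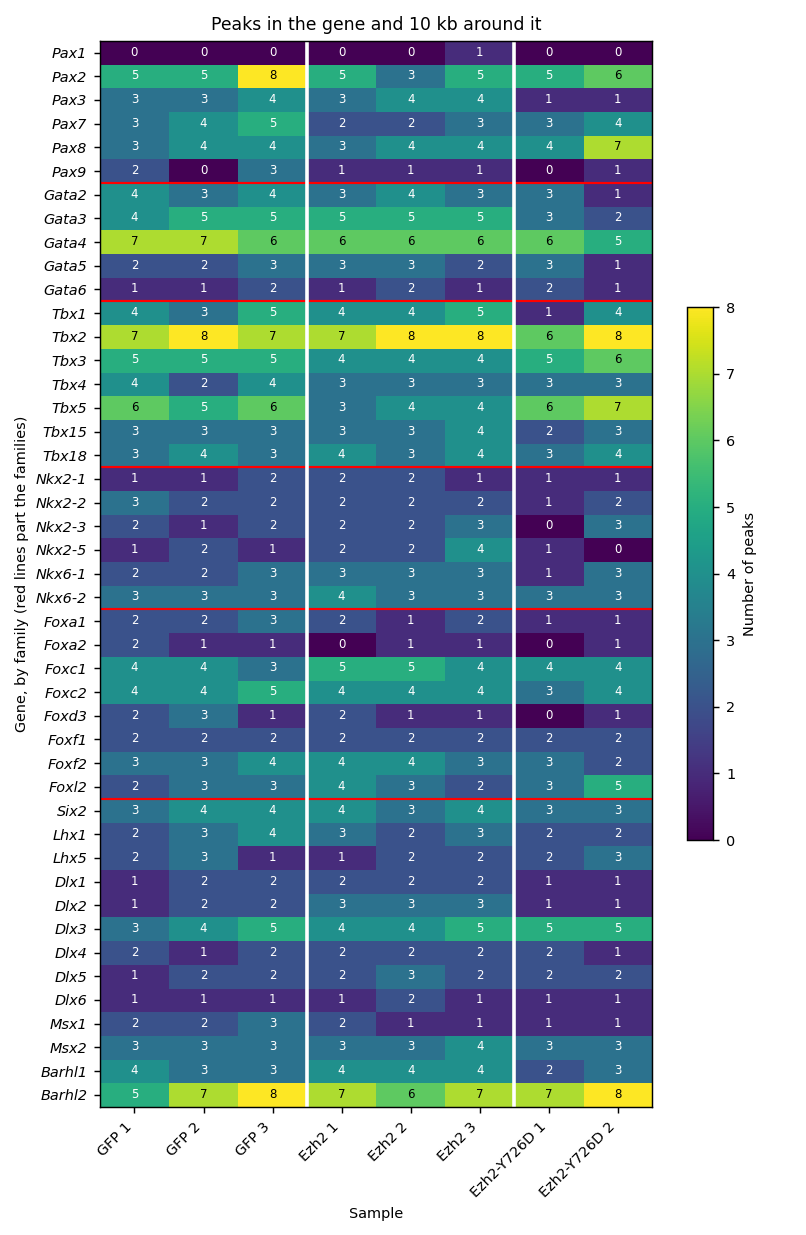
Number of peaks in each of the 45 genes and 10 kb around it (rows, by family) in each of the 8 samples (columns, by group). Tbx2 and Barhl2 hold up to 8 peaks, Pax1 holds 1 peak in 1 list, and Pax3 falls from 3 or 4 peaks in GFP and Ezh2 to 1 in both Ezh2-Y726D samples.

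The strongest single regions lay away from the members' own promoters. The strongest of all was 9214 bp below Tbx4, a hindlimb and lung factor, at chr11:85876267-85877153 in no annotated gene, with a percentile from 98.4 to 99.9 over the 8 lists. At Lhx1 the strongest region (chr11:84513026-84514159, 95.9 to 99.6) covered the promoter of the neighbouring gene Aatf. At Foxc2 it lay in the neighbouring gene Mthfsd and over the promoter of that gene (chr8:121107685-121108741, 94.0 to 96.3). At Pax2 (chr19:44824899-44826099, 87.3 to 98.5) and at Six2, the factor of nephron progenitors (chr17:85664343-85665511, 91.5 to 97.3), it lay inside the gene, and at neither did it overlap a listed promoter. For 14 of the 45 members another protein-coding gene reached into the window, so a peak there cannot be assigned to the member alone.

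The comparisons asked whether raising Ezh2, with or without its catalytic activity, changed openness at these targets. For each comparison the data gave 3 readings: the rank of fold at the 72 shared regions, the number of peaks per gene, and regions gained (a peak in every sample of the first group and in none of the second) or lost. Within each list, folds were ranked among the 69493 regions found in every list, not among all its peaks. Ranks were turned into normal scores, where 1 unit is about 1 SD of these shared regions. A score thus differs from a list percentile: the strongest Pax3 region in GFP replicate 3 scored 0.00 at list percentile 71.8. Ranks and numbers were tested with limma across the whole genome, with a call at an adjusted p under 0.05. Gain and loss were not tested, since groups of this size cannot give an exact p below 0.1. The comparisons share samples, and those with GFP share all controls.

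With Ezh2 against GFP, few members moved. A region inside Pax3, the factor of neural crest and muscle progenitors, was higher in rank, which made 1 of 72 shared regions higher and 0 lower, against 1.59% and 2.84% of all shared regions, or 4.44% either way. No member changed in number of peaks by limma (0 of 45, against 2.13% of all genes with more and 0.952% with fewer, 3.09% either way). At an unadjusted p under 0.05 there were 5 members, with Dlx2 at more peaks in Ezh2 and Tbx3, Tbx5, Pax7 and Msx1 at fewer, or 11.1% of members against 13.2% of all genes. Of the 187 regions 4 were gained (2.14% against 2.72% of all regions) and 1 was lost (0.535% against 1.68%). The median rank difference was 0.06 over the shared regions of members and 0.01 over all shared regions.

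With Ezh2-Y726D against GFP, Pax3 had fewer peaks, and a region each of Pax2 and Tbx3 was lower and a region of Tbx15 higher in rank. These were 1 of 72 shared regions higher (3.55% of all were) and 2 lower (4.65%, with 8.21% either way), and 0 of 45 members with more peaks (1.53%) and 1 with fewer (4.45%, with 5.98% either way). There were 3 regions gained (1.60% against 4.77%) and 8 lost (4.28% against 4.72%). Peak number was below GFP by a median of 0.21 on the log2 scale over the members, with 11 of 45 above 0 (24.4%), against a median of 0 and 39.1% above 0 over all genes.

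Ezh2 against Ezh2-Y726D differed most. Pax3, Gata3 and Dlx2 had more peaks in Ezh2 and Tbx3 and Tbx5 fewer. That is 3 of 45 members with more (6.67% against 9.07% of all genes) and 2 with fewer (4.44% against 2.01%), while 11.1% of all genes were called either way. Regions at Pax2, Gata3 and Tbx3 were higher in rank and regions at Pax7, Pax8 and Tbx15 lower, so 3 of 72 were called each way (4.17%), against 7.0% higher and 6.96% lower of all shared regions, 14.0% in all. There were 14 regions gained (7.49% against 8.96%) and 4 lost (2.14% against 6.14%). Peak numbers leaned towards Ezh2, with 33 of 45 members (73.3%) above 0 against 51.2% of all genes. Peak numbers at markers of T cells and microglia differed the same way, with more peaks in Ezh2 called at 11 of 18 and 11 of 20 genes. In rank, their shared regions were more often lower in Ezh2 (16 of 49 and 8 of 32) than higher (3 and 3). Regions at markers of rods, Mueller glia and astrocytes, and amacrine and horizontal cells were more often higher (9 of 73, 11 of 64 and 7 of 47) than lower (0, 2 and 0). At endothelial cells and pericytes 5 of 52 were called each way. The part of these cells in the member results was not tested. At Hox genes 18 of 36 were called with more peaks in Ezh2, and at the retinal transcription factors 3 of 20.

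**Figure D3:**
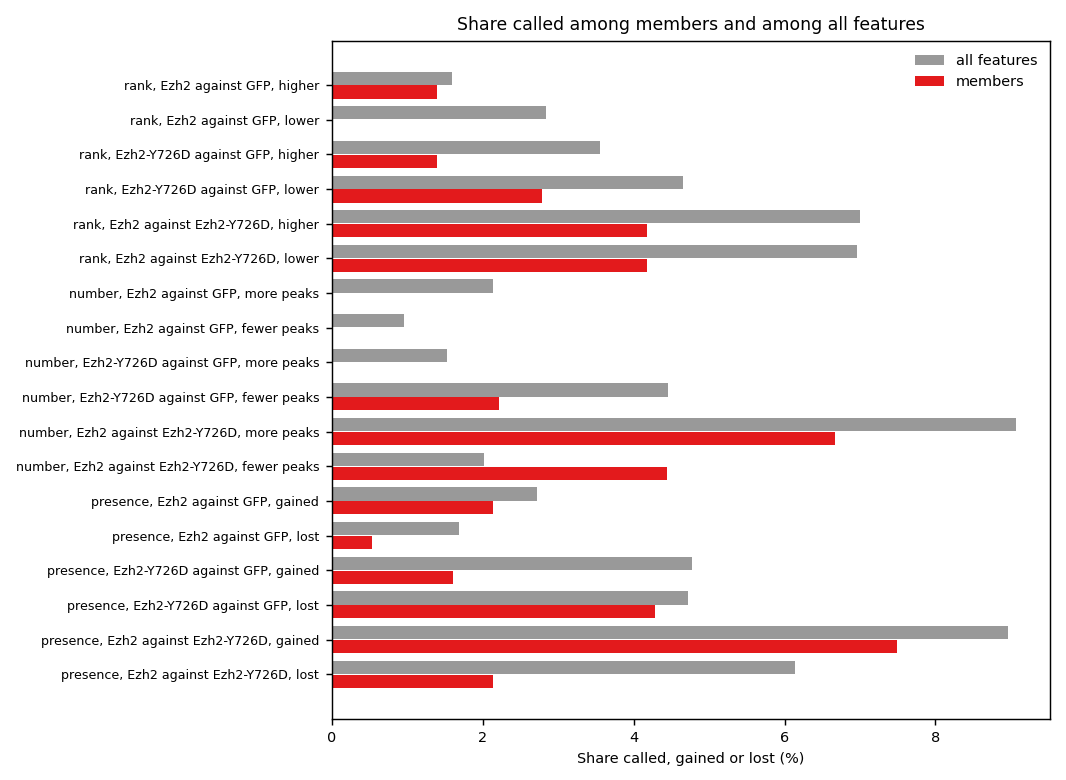
Share called (%) among members (red) and among all features (grey) in each comparison and direction, for the rank of shared regions, the number of peaks per gene and the gain or loss of regions. The members lie at or below the share of all features except for fewer peaks in Ezh2 than in Ezh2-Y726D, where 2 of 45 genes gave 4.44% against 2.01%.

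Of the 6 Pax genes, only Pax3 was called by number of peaks. Pax3 held 3, 3 and 4 peaks in GFP and 3, 4 and 4 in Ezh2, but 1 and 1 in Ezh2-Y726D. GFP and Ezh2 overlapped, and both Ezh2-Y726D lists lay below them. Its log2 number of peaks was 1.11 lower in Ezh2-Y726D than in GFP (difference -1.11, SE 0.145, adjusted p = 0.0109 by limma) and 1.21 higher in Ezh2 than in Ezh2-Y726D (SE 0.145, adjusted p = 0.00518). With only peaks of −log10 q of at least 5 both calls were lost (adjusted p = 0.738 and 0.343). The first was also lost without Ezh2-Y726D replicate 1 (0.0637) or replicate 2 (0.0593).

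Pax3 had 4 regions, of which only the strongest had a peak in Ezh2-Y726D. A region inside the gene (chr1:78181880-78182261) was at percentiles 20.0, 28.7 and 64.5 in GFP and 49.2, 55.5 and 69.8 in Ezh2, with no peak in Ezh2-Y726D. Another, 6251 bp above the gene (chr1:78203387-78204195), was present in all GFP lists at 26.5, 16.9 and 41.1, in Ezh2 replicates 2 and 3, and again in no Ezh2-Y726D list. The next, overlapping the gene (chr1:78196356-78197452), was called in GFP replicate 3 (26.8) and all Ezh2 lists (13.5, 10.46 and 14.95). The strongest region, inside the gene (chr1:78103014-78104167), had a peak in all 8 lists. Its normal scores were 0.07, 0.52 and 0.00 in GFP, 1.29, 0.85 and 1.34 with Ezh2 and 0.67 and 0.96 with Ezh2-Y726D. All Ezh2 and Ezh2-Y726D scores lay above all GFP scores. Ezh2 exceeded GFP by 0.96 (SE 0.208, adjusted p = 0.0323), while Ezh2-Y726D against GFP was 0.62 (SE 0.232, adjusted p = 0.133). The call was lost in 7 of 13 alternatives, among them when ranked by −log10 p (0.0592), with regions in at least 5 lists (0.0754), and without GFP replicate 1 (0.0894), GFP replicate 3 (0.0936), Ezh2 replicate 1 (0.0911) and Ezh2 replicate 3 (0.0954).

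At Pax2 the strong region inside the gene scored 1.55, 1.63 and 1.90 in GFP and 1.60, 1.55 and 1.69 in Ezh2, but 0.75 and 1.01 in Ezh2-Y726D. Ezh2-Y726D was lower than GFP (difference -0.81, SE 0.186, adjusted p = 0.0276) and Ezh2 higher than Ezh2-Y726D by 0.73 (SE 0.186, adjusted p = 0.0281). Both calls were lost without Ezh2-Y726D replicate 1 (0.181 and 0.184) or replicate 2 (0.0762 and 0.0699), the first also without GFP replicate 2 (0.0593) or 3 (0.0621), and the second without Ezh2 replicate 1 (0.065), 2 (0.0537) or 3 (0.0703). A weak region inside Pax2, 3934 bases after a start site (chr19:44750535-44750996), was gained in Ezh2 over both other groups, at percentiles 39.2, 18.8 and 11.6.

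Pax8 and Pax7 moved the other way between Ezh2 and Ezh2-Y726D. Pax8, a thyroid and kidney factor, had a region inside the gene (chr2:24427903-24428822) with scores 0.91, 0.95 and 1.46 in GFP, -0.59, 0.85 and 0.59 with Ezh2 and 1.62 and 1.99 with Ezh2-Y726D. Ezh2 was below Ezh2-Y726D (difference -1.52, SE 0.379, adjusted p = 0.0262), with Ezh2 replicate 1 far below the rest, and the call was lost when ranked by −log10 p (0.0881), with regions in at least 5 lists (0.0736), and without Ezh2-Y726D replicate 1 (0.0871) or 2 (0.158). A region 7026 bases after the Pax8 start site (chr2:24468197-24468573) had no peak in GFP and a peak in all Ezh2 lists (percentiles 33.5, 7.96 and 23.8) and both Ezh2-Y726D lists (53.1 and 47.3). Pax7, which marks muscle stem cells, had scores of 0.71, 0.81 and 0.31 in GFP, -0.25, 0.21 and -0.56 with Ezh2 and 0.99 and 0.53 with Ezh2-Y726D at a region inside the gene (chr4:139744613-139745343). All Ezh2 scores were the lowest. Ezh2 was below Ezh2-Y726D by a difference of -0.96 (SE 0.265, adjusted p = 0.0389), a call lost in 9 of 13 alternatives, among them with lists of equal length (0.0546), when ranked by −log10 p (0.0881), with regions in at least 5 lists (0.071), and without GFP replicate 1 (0.052), Ezh2 replicate 1 (0.0905) or 3 (0.0976), or Ezh2-Y726D replicate 1 (0.241) or 2 (0.0709).

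**Figure D4:**
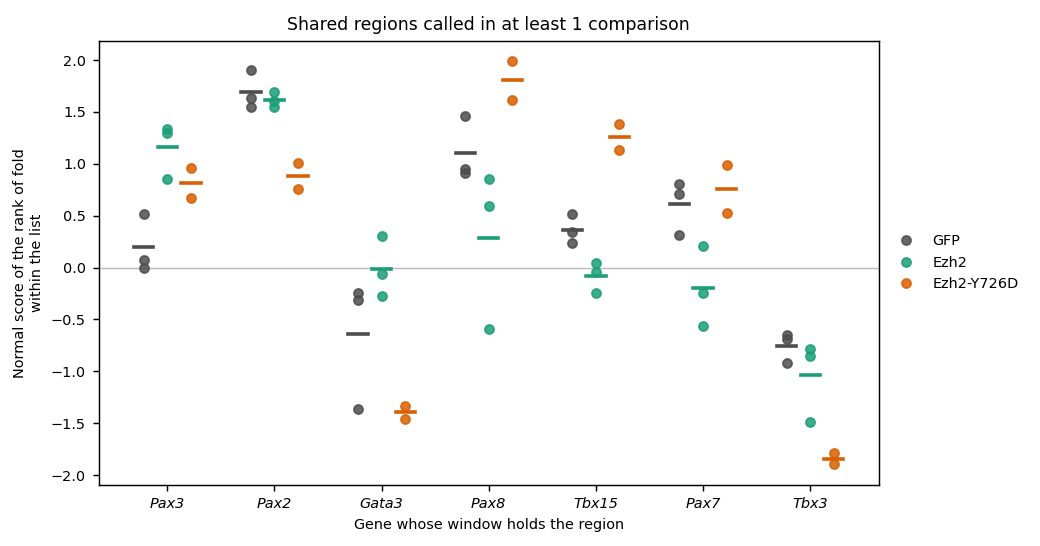
Normal score of the rank of fold among the shared regions of each list (vertical axis) at the 7 shared regions called in at least 1 comparison. Regions are named by gene, with 1 point per sample and a bar at the group mean. Ezh2-Y726D stands apart from both other groups at Pax2, Pax8, Tbx15 and Tbx3, and GFP stands lowest at Pax3.

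In the Gata family the change was at Gata3, the factor of T helper cells, the inner ear and sympathetic neurons. It held 4, 5 and 5 peaks in GFP, 5, 5 and 5 with Ezh2 and 3 and 2 with Ezh2-Y726D, so the Ezh2-Y726D lists lay below all others. Ezh2 exceeded Ezh2-Y726D by 0.79 on the log2 scale (SE 0.142, adjusted p = 0.0234), and Ezh2-Y726D against GFP was -0.70 (SE 0.142, adjusted p = 0.0528). The first was lost in 6 of 14 alternatives, among them with lists of equal length (0.121) and without Ezh2 replicate 1 (0.0709), 2 (0.0684) or 3 (0.0663) or Ezh2-Y726D replicate 2 (0.0603). The missing peaks were the one over the promoter printed above (chr2:9878247-9878989) and one 10774 bases after that start site inside the gene (chr2:9867178-9867826). The latter was at percentiles 32.98, 54.4 and 65.6 in GFP and 41.1, 44.3 and 53.5 in Ezh2.

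Another Gata3 region, 1014 bp above the gene and within 9230102O04Rik (chr2:9888967-9889991), was lower in Ezh2-Y726D but present in every list. Its scores were -0.25, -1.37 and -0.31 in GFP, -0.27, 0.30 and -0.07 with Ezh2 and -1.33 and -1.46 with Ezh2-Y726D, with GFP replicate 2 among the Ezh2-Y726D values. Ezh2 exceeded Ezh2-Y726D by 1.38 (SE 0.324, adjusted p = 0.0203). It was lost with regions in at least 5 lists (0.0568), and without Ezh2 replicate 2 (0.0527) or Ezh2-Y726D replicate 1 (0.105) or 2 (0.123). Gata3 is a gene of T cells, whose 18 markers held 67 and 68 peaks in the Ezh2-Y726D lists and 102 to 149 in the others, and the part of T cells in the Gata3 values was not tested. The other Gata genes were not called. Gata4 had 1 region, 3335 bp below the gene (chr14:63195085-63195579), gained in Ezh2 over Ezh2-Y726D at percentiles 43.0, 44.7 and 56.0, with weak peaks in GFP replicates 1 (2.52) and 3 (3.16).

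Among the T-box genes, a region inside Tbx15, a factor of skeleton and fat, gave the most stable difference. Its scores were 0.34, 0.52 and 0.24 in GFP, -0.04, -0.25 and 0.04 with Ezh2 and 1.38 and 1.13 with Ezh2-Y726D (chr3:99297877-99298722). The groups did not overlap, with Ezh2 lowest and Ezh2-Y726D highest. Ezh2 was below Ezh2-Y726D by a difference of -1.34 (SE 0.187, adjusted p = 0.00229), which held in all 13 alternatives (adjusted p from 0.00165 to 0.0263). Ezh2-Y726D was above GFP by 0.89 (SE 0.187, adjusted p = 0.0201), a call lost without GFP replicate 1 (0.053) or Ezh2-Y726D replicate 1 (0.143) or 2 (0.0629). Ezh2 against GFP was -0.45 (SE 0.167, adjusted p = 0.165). With peaks required to cover 0.5 of the region, the Tbx15 region dropped out of the fit, so none of these differences was tested there.

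Tbx3 and Tbx5, neighbours on chromosome 5 that act together in the dorsal retina and the limb, had fewest peaks in Ezh2. Tbx5 held 6, 5 and 6 peaks in GFP, 3, 4 and 4 with Ezh2 and 6 and 7 with Ezh2-Y726D. Tbx3 held 5 in each GFP list, 4 in each Ezh2 list and 5 and 6 in Ezh2-Y726D. All 4 merged regions of Tbx3 had a peak in all 8 lists, so none was missing in Ezh2. The Tbx3 numbers differed only where a region held more than 1 peak. For both genes all Ezh2 lists lay below all others. Against Ezh2-Y726D the difference was -0.69 for Tbx5 (SE 0.135, adjusted p = 0.0312) and -0.37 for Tbx3 (SE 0.0617, adjusted p = 0.0179), the latter a matter of 1 or 2 peaks. Against GFP it was -0.52 for Tbx5 (SE 0.121, adjusted p = 0.122) and -0.26 for Tbx3 (SE 0.0552, adjusted p = 0.0845). With lists of equal length the Tbx3 difference turned to 0.37 (adjusted p = 0.408), and with −log10 q of at least 5 it was 0.00 (adjusted p = 1). For Tbx5 it was -0.59 (0.0609) and -0.35 (0.455) under these settings, so its call was lost in both. The Tbx3 call was lost without Ezh2 replicate 1 (0.0575), 2 (0.0563) or 3 (0.0546), and the Tbx5 call without GFP replicate 1 (0.0584) or 3 (0.0535), Ezh2 replicate 2 (0.0603) or 3 (0.0586), or Ezh2-Y726D replicate 1 (0.0843) or 2 (0.152).

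At Tbx5, a peak 1575 bp above the gene (chr5:119886795-119887658) was at percentiles 38.9, 56.0 and 58.7 in GFP and 30.3 and 64.8 in Ezh2-Y726D, and absent from all 3 Ezh2 lists. It was the only member region lost in Ezh2 against GFP. A weaker region inside Tbx5 (chr5:119845031-119845487) was likewise absent in Ezh2 and present in both Ezh2-Y726D lists (44.8 and 16.8) and in GFP replicates 1 and 2, and a region at chr5:119828169-119828775 was gained in Ezh2-Y726D over GFP (7.04 and 30.0), with a peak in Ezh2 replicate 1 as well. At Tbx3 the number and the rank moved in opposite directions. A region 968 bp above the gene, over Tbx3os2 (chr5:119685692-119686642), scored -0.92, -0.69 and -0.65 in GFP, -1.48, -0.78 and -0.85 with Ezh2 and -1.79 and -1.90 with Ezh2-Y726D, both of the last below all others. Ezh2-Y726D was below GFP (difference -1.09, SE 0.232, adjusted p = 0.0215) and Ezh2 above Ezh2-Y726D by 0.80 (SE 0.232, adjusted p = 0.0458). The latter was lost in 11 of 12 alternatives (adjusted p from 0.0131 to 0.219), among them without any 1 sample other than Ezh2 replicate 1. The former was lost when ranked by −log10 p (0.0555) and without GFP replicate 2 (0.0522) or 3 (0.056) or Ezh2-Y726D replicate 1 (0.116) or 2 (0.127).

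Tbx1, a factor of the pharyngeal arches, lost peaks in Ezh2-Y726D at 2 places without a call for the gene. A region 3026 bp below it (chr16:18577587-18577953) was at percentiles 68.4, 68.3 and 56.6 in GFP and 55.2, 45.5 and 58.9 in Ezh2, with no peak in Ezh2-Y726D, and had the highest mean percentile of all member regions lost there. A region over 1 of its promoters (chr16:18590292-18590836) had a peak in all Ezh2 lists (45.9, 22.6 and 34.1), in GFP replicates 1 and 3, and in neither Ezh2-Y726D list. Tbx1 held 1 and 4 peaks in the Ezh2-Y726D lists and 3 to 5 in the others. A region inside Tbx4 (chr11:85913461-85913872) went the other way, with a peak in both Ezh2-Y726D lists (43.0 and 47.3), in GFP replicates 1 and 3 and in no Ezh2 list.

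Nkx and Fox genes gave no call in either test. The 6 Nkx genes, which specify ventral neural tube, thyroid, heart and pancreas, held 12, 11 and 13 peaks in GFP, 15, 14 and 16 with Ezh2 and 7 and 12 with Ezh2-Y726D. Their numbers were higher in Ezh2 than in Ezh2-Y726D for 6 of 6 genes, none past the threshold, with Nkx2-5 of the heart at 2, 2 and 4 peaks against 1 and 0 (difference 1.33, SE 0.407, adjusted p = 0.113). The 8 Fox genes held 21, 22 and 22, then 23, 21 and 19, then 16 and 20 peaks. A region inside Foxf2, a factor of gut mesenchyme (chr13:31629219-31629930), was at percentiles 11.8, 44.97 and 36.1 in GFP and 18.5, 35.2 and 48.2 in Ezh2, and had no peak in Ezh2-Y726D. Foxa1, an endoderm factor that opens chromatin, lost a weak region 1150 bp below the gene in Ezh2-Y726D against GFP.

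Among the other homeobox genes only Dlx2 was called. It held 1, 2 and 2 peaks in GFP, 3, 3 and 3 with Ezh2 and 1 and 1 with Ezh2-Y726D, so Ezh2 lay above both other groups. Ezh2 exceeded Ezh2-Y726D by 1.00 on the log2 scale (SE 0.186, adjusted p = 0.0264), and the difference from GFP was 0.61 (SE 0.166, adjusted p = 0.168). The added peaks were among the weakest of their lists. A region inside Dlx2 (chr2:71544498-71544816) was called in the Ezh2 lists only, at percentiles 4.07, 5.25 and 1.23, and one between Dlx1 and Dlx2 (chr2:71542726-71543332), named after its values were seen, at 13.3, 3.36 and 9.97 in Ezh2, 0.91 and 2.34 in GFP replicates 2 and 3, and in no Ezh2-Y726D list. The call was lost with lists of equal length (0.786), with −log10 q of at least 5 (0.307), and also without Ezh2 replicate 1 (0.0783), 2 (0.0756) or 3 (0.0732) or Ezh2-Y726D replicate 1 (0.123) or 2 (0.115). Dlx1, its neighbour, held 1, 2 and 2 peaks in GFP, 2 in each Ezh2 list and 1 in each Ezh2-Y726D list, a difference of 0.58 between Ezh2 and Ezh2-Y726D (SE 0.186, adjusted p = 0.113).

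Other gains in this group were single regions. In Barhl1, a factor of cerebellum and inner ear, a region 267 bases after a start site (chr2:28915885-28916401) had a peak in all 3 Ezh2 lists (percentiles 23.7, 40.0 and 26.3) and in no other list. At Six2 a region 2374 bp below the gene (chr17:85660008-85660362) was at 41.8, 48.9 and 39.5 in Ezh2, at 2.51 and 21.4 in GFP replicates 2 and 3, and absent in Ezh2-Y726D. At Lhx5, a forebrain factor, a region 7516 bp below the gene (chr5:120424057-120424370) had a peak in the Ezh2-Y726D lists only, at 53.1 and 42.8. All 22 member regions gained or lost in any comparison are in the plot of regions by gene and sample, where 16 of them (72.7%) have no peak in either Ezh2-Y726D list. Of the 36172 regions gained or lost anywhere in the genome, 52.9% had none there, and the difference between these shares was not tested.

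**Figure D5:**
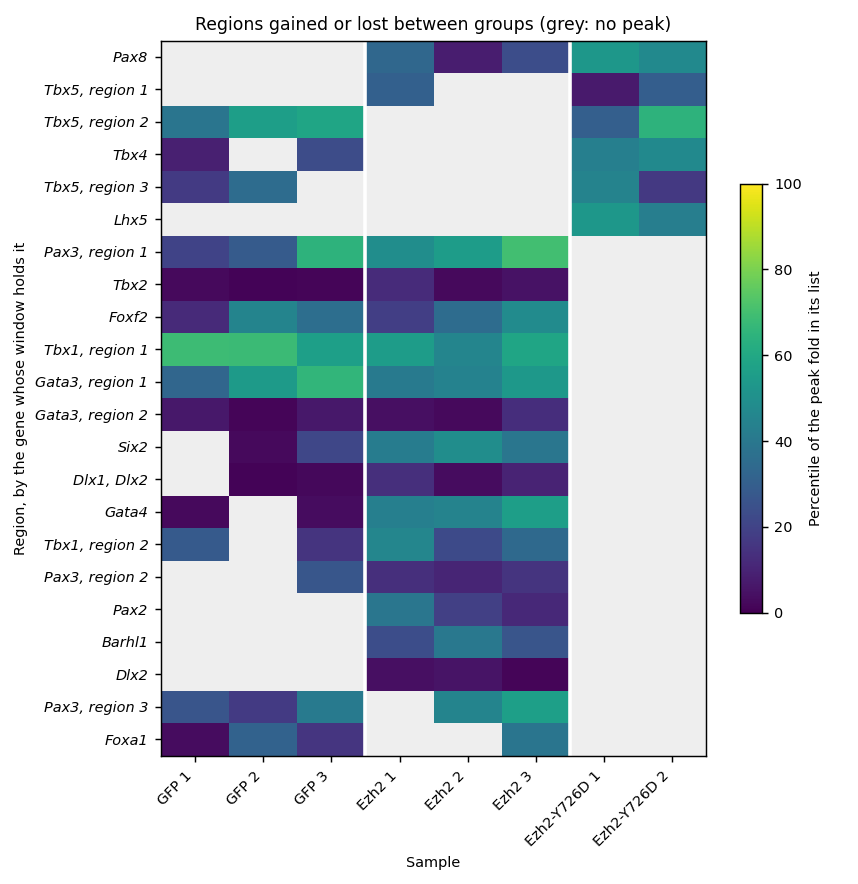
The 22 member regions gained or lost in at least 1 comparison (rows, named by the gene whose window holds them) in each of the 8 samples, coloured by the percentile of the peak's fold within its own list, with grey for no peak. In 16 rows neither Ezh2-Y726D sample has a peak; 3 rows (Pax2, Barhl1, Dlx2) have peaks in the Ezh2 samples only.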

How the data were processed

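ATAC-seq peaks of 8 samples (3 GFP, 3 Ezh2, 2 Ezh2-Y726D, grouped by sample title) were examined. The authors called peaks per sample. Their processing notes name cutadapt, Bowtie2, SAMtools, Picard, MACS2 and deepTools, without versions, and the build GRCm38, and no threshold is given in the sources used here. The deposited lists hold a score, a fold (the ratio of pileup to local background), a −log10 p-value and a −log10 q-value per peak. The fold served for ranking within a list, the −log10 p-value and −log10 q-value for alternatives, and the deposited score was not used. Columns of the authors' comparisons were not used. Depth is unknown, so folds were compared between lists only as ranks. Presence and numbers of peaks were compared as deposited, on lists of unequal length, with lists cut to equal length as an alternative. The peak names number the 2 Ezh2-Y726D lists differently from the titles, which were followed.

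Genes were those of the RefSeq annotation of GRCm38.p6. Peaks sharing at least 1 bp over the lists were merged into 189914 regions, and the 69493 found in every list entered the rank test. Peak numbers were tested as log2(number plus 1) for 18690 genes with a peak. Both tests used limma 3.58.1 in R 4.3.3 (lmFit, eBayes, trend for numbers), with all 8 samples in 1 fit and 3 contrasts, and Benjamini-Hochberg adjustment over all features. Numbers that do not vary within any group give an SE near 0, so a call can rest on 1 peak. When tested on simulated data with 200 changed features, the rank fit recovered 82.5%, 81.5% and 80.5% of regions shifted by 2 units for Ezh2 with GFP, Ezh2-Y726D with GFP, and Ezh2 with Ezh2-Y726D (69493 regions), and the number fit 28.0%, 10.5% and 20.0% of 3-fold changes (18690 genes). For the number fit, the changed genes were drawn from those with more peaks than most members hold, and numbers varied at random (Poisson). These shares therefore do not describe most members. For the rank fit, the shift of 2 units was larger than every rank difference called at a member, the largest being -1.52 at Pax8. Its shares therefore do not describe differences of the size called here.

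Named were members called in either test, up to 5 gained and 5 lost regions per comparison by mean percentile, members with most and fewest peaks and the 5 with the strongest regions; other names and regions were chosen after their values were seen. The members, lists and tests were chosen with earlier results of these data known. Alternatives were other windows, thresholds, rankings, filters, equal list lengths, a replicate block and leaving out each sample. An alternative in which a region dropped out of the rank fit was not counted for that region. Promoter counts under 2 alternatives were added after the data had been seen. Samples of the same replicate number, as given by the titles, did not deviate together.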

Additional observations from a re-analysis of the deposited data

How the results depend on the processing

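The counts of called members were small and moved with the processing. For the rank of shared regions, 1 call in Ezh2 against GFP became 0 with peaks required to cover 0.5 of the region, 0 when ranked by −log10 p and 2 with regions in at least 5 lists. The 3 calls in Ezh2-Y726D against GFP became 0, 5 and 10, and the 6 in Ezh2 against Ezh2-Y726D became 2 with the cover rule and 12 with at least 5 lists. The setting of at least 5 lists also took in the 12, 16 and 23 member regions with a peak in 5, 6 and 7 lists. Missing peaks were given the lowest score there, so these counts are not out of 72. The share of all features called is not given here for any alternative setting. For the number of peaks, 0, 1 and 5 calls in the same order became 1, 2 and 2 with −log10 q of at least 5, and the 5 became 1 with lists of equal length, where Tbx3 turned to 0.37. Leaving out 1 sample at a time gave 0 to 2, 0 to 3 and 1 to 6 rank calls and 0 to 1, 0 to 3 and 1 to 5 number calls, with a lone Ezh2-Y726D sample assumed to vary like the other groups.

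Gained and lost regions in Ezh2 against GFP went from 4 and 1 to 0 and 3 with −log10 q of at least 5, and gained ones to 1 with equal lengths. In Ezh2-Y726D against GFP, 8 lost became 5 within 3 kb and 4 with the q threshold. In Ezh2 against Ezh2-Y726D, 14 gained became 8 with equal lengths and 4 lost became 7 with the cover rule. Leaving out a sample, which eases the rule, gave 4 to 5 gained and 1 to 3 lost, 3 to 11 and 9 to 17, and 15 to 23 and 4 to 12. In Ezh2-Y726D against GFP the gained regions rose to 11 without Ezh2-Y726D replicate 1 and the lost ones to 17 without replicate 2.

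Mean member peaks of 138, 136 and 121 in GFP, Ezh2 and Ezh2-Y726D became 103, 104 and 92.5 with the q threshold, 122, 112 and 101 with equal lengths and 102, 100 and 86.5 within 3 kb. Members with a peak became 42.3 and 42.0 in GFP and Ezh2 with the q threshold, and 42.0 and 38.5 in GFP and Ezh2-Y726D within 3 kb. Mean member promoters with a peak went from 15.7, 17.0 and 11.0 to 11.3, 10.7 and 8 with the q threshold, so the order of GFP and Ezh2 turned, and to 13.7, 12 and 9.5 with equal lengths, where it turned as well. Ezh2-Y726D had the lowest mean in all of these, though its promoter counts overlapped the other groups under both settings.

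Samples share only a replicate number: correlations of their deviations ran from -0.0151 to 0.0478 over 7 same-numbered pairs. These pairs and the replicate block follow the titles. With the Ezh2-Y726D lists numbered as in the peak names, their same-numbered pairs ran from 0.0018 to 0.0461. With a replicate block, rank calls were 0, 2 and 3 and number calls 1, 1 and 2 in the 3 comparisons. Of the 16 calls of single members, 10 were lost and 6 held with it. Depth is unknown, and a missing peak may be one just under the authors' threshold.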

Other observations

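The genes of the Polycomb complexes themselves were open in every sample. All 11 PRC2 genes and all 16 PRC1 genes had a peak in or within 10 kb of the gene in all 8 lists, with 48 to 64 and 77 to 91 peaks per list. By number of peaks, 1 PRC2 gene was called in Ezh2 against GFP, Ezh2 itself, with 4, 5 and 6 peaks in GFP, 9, 10 and 9 with Ezh2 and 4 each with Ezh2-Y726D (log2 difference 0.80, SE 0.126, adjusted p = 0.0367 by limma). The Ezh2 virus and the Ezh2-Y726D virus both carried this gene, the latter in mutated form. The part of viral DNA in the peaks at Ezh2 was not tested. Of the PRC1 genes, Phc1 had 3, 4 and 3 peaks in GFP, 4 in each Ezh2 list and 2 in each Ezh2-Y726D list, fewer in Ezh2-Y726D than in GFP (difference -0.52, SE 0.102, adjusted p = 0.0485). Cbx2 had 4 peaks in each GFP list and 3 in all others, a difference of 1 peak whose SE was near 0. For Ezh2 with GFP, Ezh2-Y726D with GFP, and Ezh2 with Ezh2-Y726D, number calls came to 1, 0 and 1 of 11 PRC2 genes. For the 16 PRC1 genes they came to 1, 2 and 1. Of all genes, 3.09%, 5.98% and 11.1% were called.

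By rank, calls for Ezh2 with GFP, for Ezh2-Y726D with GFP, and between the viruses with Ezh2, came to 2, 2 and 2 of 32 shared PRC2 regions and 2, 1 and 3 of 57 shared PRC1 regions, where 4.44%, 8.21% and 14.0% of all shared regions were called. The examples that follow were named after their values had been seen. At Phc2, a PRC1 subunit that joins complexes into larger bodies, a shared region (chr4:128721013-128722132) ranked lowest in Ezh2-Y726D. Its normal scores were -0.54, -0.68 and -0.60 in GFP, -1.10, -1.08 and -1.01 with Ezh2 and -2.08 and -1.96 with Ezh2-Y726D. The groups did not overlap. Ezh2-Y726D differed from GFP by -1.41 (SE 0.165, adjusted p = 0.00256) and Ezh2 exceeded Ezh2-Y726D by 0.96 (SE 0.165, adjusted p = 0.00554). At Jarid2, a PRC2 cofactor, a region at chr13:44905833-44906543 went the other way, with scores of -2.45, -2.17 and -2.32 in GFP, -1.76, -1.46 and -1.73 with Ezh2 and -1.20 and -1.15 with Ezh2-Y726D, above GFP by 0.66 in Ezh2 (SE 0.163, adjusted p = 0.0496) and by 1.13 in Ezh2-Y726D (SE 0.182, adjusted p = 0.00754).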
